A study of Homo sapiens with 16 samples.

Results

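The genes described are 6 transcription factors that drive epithelial-mesenchymal transition (EMT), SNAI1, SNAI2, ZEB1, ZEB2, TWIST1 and TWIST2, and 4 core markers of that transition, CDH1, CDH2, VIM and FN1. They were found by their gene names in the exon count table of each library, and all 10 were present among 60606 gene names. The libraries hold polyadenylated RNA of 786-O and A498, established lines from human clear cell kidney cancer. In 786-O, SETD2 had been knocked out (KO) or was intact (WT), and cells of each genotype were given A1331852 at 100 nM, which blocks the anti-apoptotic factor BCL-XL, or its vehicle DMSO for 72 h, with 3 libraries in each of these 4 groups. A498, which received no treatment, was labelled SETD2 deficient or SETD2 addback, with 2 libraries each. SETD2 is the methyltransferase that trimethylates lysine 36 of histone H3. Whether the 786-O knockout is a single clone, and by which vector SETD2 was restored in A498, is not given in the sources used here.

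EMT is the programme by which epithelial cells lose their junctions and take on the shape and matrix genes of mesenchymal cells. SNAI1 (Snail) and SNAI2 (Slug) are zinc finger repressors, ZEB1 and ZEB2 are zinc finger and homeodomain repressors, and TWIST1 and TWIST2 are basic helix-loop-helix factors. The SNAI and ZEB proteins bind E-box motifs and repress CDH1, which encodes E-cadherin, the adhesion molecule of epithelial junctions. CDH2 encodes N-cadherin, VIM the intermediate filament protein vimentin, and FN1 the matrix glycoprotein fibronectin, all usually higher in mesenchymal cells. Proximal tubule cells, from which clear cell carcinoma is thought to arise, are unusual among epithelia in that N-cadherin is their main cadherin.

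The positions are those of the deposited tables (GRCh38, GENCODE release 41). Among the factors, SNAI1 lies at chr20:49982980-49988886 on the plus strand, SNAI2 at chr8:48917598-48921740 on the minus strand, ZEB1 at chr10:31318495-31529814 (plus), ZEB2 at chr2:144364364-144521057 (minus), TWIST1 at chr7:19020991-19117636 (minus) and TWIST2 at chr2:238848032-238910534 (plus). The markers CDH1 at chr16:68737292-68835537, CDH2 at chr18:27932879-28177946, VIM at chr10:17228241-17237593 and FN1 at chr2:215360440-215436073 lie on the plus, minus, plus and minus strands. All are protein-coding, and the counts cover their exons. No gene on the same strand shared exon bases with any of the 10. Overlaps lay on the opposite strand only, the largest being 1299 bases of ZEB2 with ZEB2-AS1 and 656 bases of VIM with VIM-AS1, and the authors' counting used strand.

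Library totals ran from 14172118 to 36037616 counts, and levels of 1 gene are compared in CPM, its count scaled to a common library size. SETD2 itself was lower in the knockout: it stood at 29.4, 47.7 and 52.5 CPM in KO against 71.2, 68.6 and 63.0 CPM in WT cells with A1331852, and at 30.0, 27.9 and 30.0 CPM in KO against 68.6, 70.9 and 65.0 CPM in WT cells with DMSO. The log2 fold changes were -0.65 ± 0.18 and -1.21 ± 0.18 (SE; edgeR, adjusted p 0.0168 and 7.39e-04). In A498, SETD2 was at 41.1 and 59.4 CPM in the libraries labelled deficient and at 44.9 and 53.8 CPM in those labelled add-back. The log2 fold change was 0.0031 ± 0.17 (SE; edgeR, adjusted p = 0.991), so the SETD2 transcript did not follow the A498 labels. The A498 groups are therefore called by their labels throughout, and every A498 direction below rests on them. Summed CPM of 8 renal carcinoma markers ran from 921.9 to 2404 over the 16 libraries, whereas 7 leukocyte markers summed to at most 2.64 CPM and 5 endothelial markers to at most 2.58 CPM. Most of the renal sum came from the keratins KRT8 (340 to 1443 CPM) and KRT18 (154 to 589 CPM). PAX8, also listed, was at 120 to 368 CPM, whereas CA9 and NDUFA4L2 were near 0, at most 0.837 and 0.713 CPM. PAX2, a renal transcription factor of that list, was lower in KO against WT cells, by 0.99 on the log2 scale with A1331852 and 0.65 with DMSO (edgeR, adjusted p 6.84e-04 and 0.0107). The list was mixed: of 6 tested, 2 were higher and 2 lower with A1331852, and 0 higher and 1 lower with DMSO. KRT18 and LHX1 were the higher genes with A1331852, by 1.00 and 0.93 (edgeR, adjusted p 0.00157 and 0.00440). Of all genes, 13.2% were higher and 15.0% lower with A1331852, and 8.29% and 10.2% with DMSO. According to the labels, batch 1 held all 6 A1331852 libraries and replicate 3 of each DMSO group, batch 2 held DMSO replicates 1 and 2, and batch 3 held A498. WT replicate 3 with A1331852 stood apart from its 2 group mates for several genes below. Replicates 1 and 2 of each DMSO group were closer to each other than any other pair, although not within sampling noise (median chi-square per gene 0.949 in KO and 1.02 in WT cells, against 0.455 from sampling noise and 1.43 to 15.4 in other pairs).

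In all 6 groups the mesenchymal markers VIM, FN1 and CDH2 were abundant and CDH1 was at or near 0. Per unit length, VIM was the most abundant of the 10 genes in every group, with group means between 1750 and 4296 TPM (counts divided by exon length and scaled to a common sum in each library). FN1 and CDH2 followed in 786-O, and their ranges were apart in 3 of the 4 groups of that line. In KO cells with A1331852 they overlapped, with FN1 at 207.5 ± 82.0 and CDH2 at 149.8 ± 17.5 TPM (SD, n = 3). In A498, CDH2 at 110.0 and 121.9 TPM (means of the deficient and add-back libraries) ranked second and FN1 at 82.1 and 42.9 TPM lay below SNAI1 at 94.9 and 73.1 TPM. The FN1 and SNAI1 ranges overlapped in the deficient libraries only. Their order rests on the summed exon lengths used, 17216 bases for FN1 and 1705 for SNAI1.

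**Figure D1:**
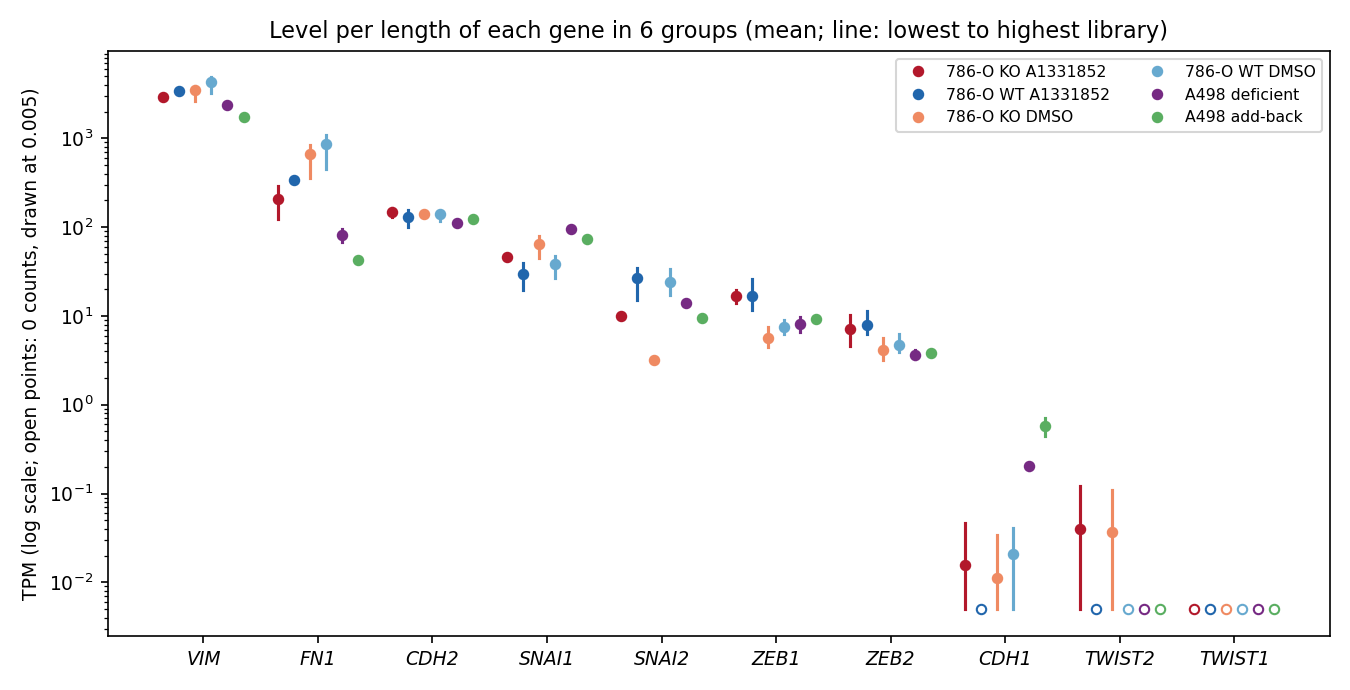
Level per length of the 10 genes (TPM, log scale) in 6 groups; points are group means over 3 libraries (786-O) or 2 libraries (A498) and lines run from the lowest to the highest library, with libraries at 0 drawn at 0.005. VIM means lie between 1750 and 4296 TPM, whereas TWIST1 is at 0 in every group and CDH1 is at most 0.576 TPM on average.

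SNAI1 had the highest mean TPM of the 6 factors in every group, at 45.5 in KO and 29.7 in WT cells with A1331852, 64.9 in KO and 38.8 in WT cells with DMSO, and 94.9 and 73.1 in the deficient and add-back libraries; in both WT groups its range overlapped that of SNAI2. The means of SNAI2, ZEB1 and ZEB2 lay between 3.21 and 26.5 TPM. Their order differed by group: SNAI2 was the lowest of the 3 in KO cells with DMSO at 3.21 ± 0.25 TPM, where its range overlapped that of ZEB2 at 4.18 ± 1.33 TPM, but it was the highest of the 3 in WT cells with DMSO at 23.9 ± 8.5 TPM. ZEB1 exceeded ZEB2 per unit length in each of the 16 libraries, by a ratio of 1.31 to 3.08. These orders rest on the summed exon lengths used, 1705 bases for SNAI1, 3281 for SNAI2, 8650 for ZEB1 and 26151 for ZEB2. In CPM, with no division by length, the ZEB2 mean was above the ZEB1 mean in every group (27.6 against 12.4 CPM in KO cells with DMSO). TWIST1, TWIST2 and, in 786-O, CDH1 were at or near 0.

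Each comparison was tested by edgeR's quasi-likelihood test across all genes that passed the low-count filter, with an adjusted p under 0.05 as a call. Of the 10 genes, 7 passed the filter in 786-O and 8 in A498, where CDH1 joined them. With DMSO, KO against WT called 1 gene higher (SNAI1) and 2 lower (SNAI2 and VIM) of the 7, beside 18.5% of all 16260 genes tested (8.29% higher and 10.2% lower). The median log2 fold change of the 7 was -0.41, against -0.02 over all genes. With the replicate block 4646 genes in place of 3001, and 5 of the 7 in place of 3, were called, ZEB1 and FN1 being added. Leaving out any 1 of the 6 DMSO libraries gave 1614 to 1777 genes and only SNAI2 among the 7, and with DMSO replicates 1 and 2 summed to 1 library 739 genes and only SNAI2 were called. With A1331852, KO against WT called SNAI1 higher and SNAI2 and FN1 lower, beside 28.2% of all genes (13.2% higher, 15.0% lower), with medians of -0.25 for the 7 and -0.01 for all genes.

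A1331852 against DMSO called 2 of the 7 in KO cells, SNAI2 and ZEB1, both higher, beside 13.5% of all genes (6.46% higher, 7.08% lower), with medians of 0.15 for the 7 and 0.01 for all genes. In WT cells edgeR called 0 of the 7, beside 0.141% of all genes (0.0369% higher, 0.105% lower). There 1 of the 7 was under an unadjusted p of 0.05 and DESeq2 also called 0, while over all genes edgeR called 23, with 2080 at an unadjusted p under 0.05, and DESeq2 415. The difference between these responses (the interaction) called 0 of the 7 by edgeR and 1 by DESeq2, with 1 under an unadjusted p of 0.05, beside 0.295% of all genes (0.203% higher, 0.0923% lower). With the replicate block the interaction called 294 genes in place of 48, SNAI2 among them. In A498, the libraries labelled deficient had 4 of 8 genes called higher, SNAI1, SNAI2, VIM and FN1, and 0 called lower (1 further gene, CDH1, was under an unadjusted p of 0.05), beside 30.2% of 15424 genes tested (15.1% higher, 15.1% lower), with medians of 0.37 for the 8 and -0.01 for all genes. Comparisons within 786-O share libraries, since each group enters 2 of them, so their values are given side by side and not as separate evidence. In RNA from whole cultures, a change in the share of cells that express a gene and a change per cell cannot be told apart.

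**Figure D2:**
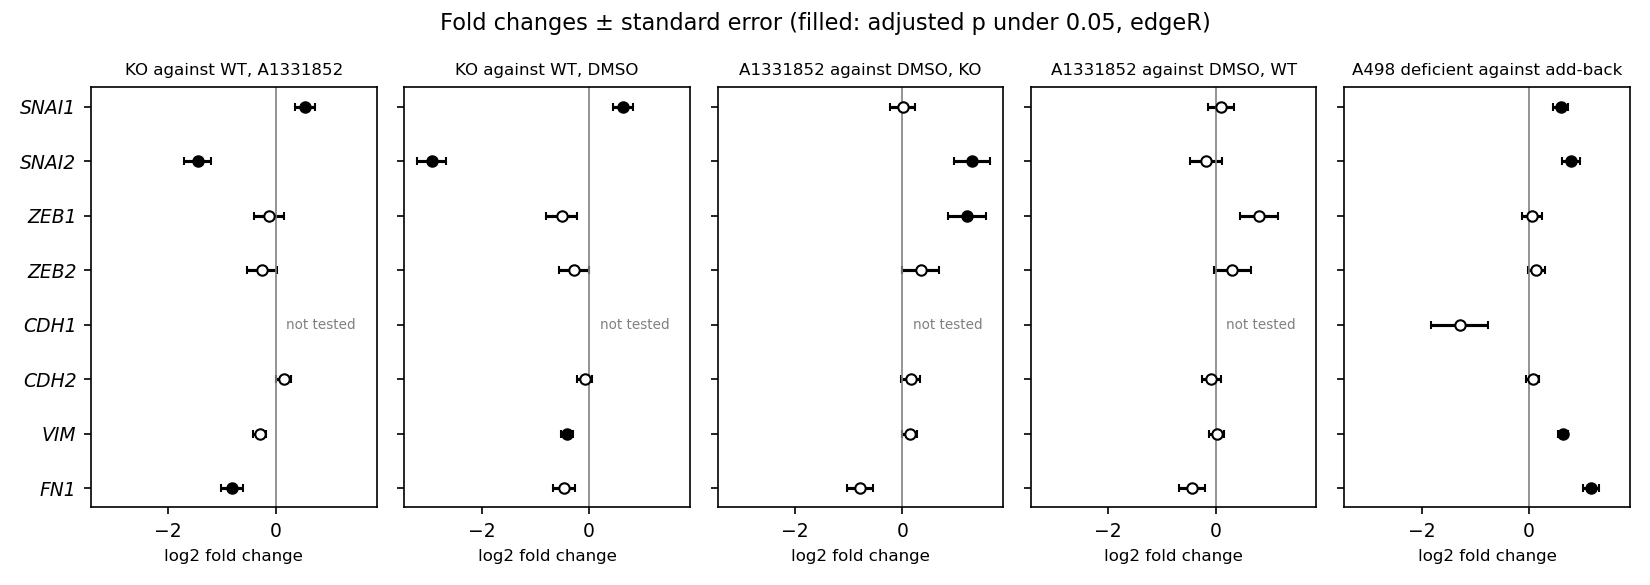
Log2 fold change ± standard error (edgeR) of 8 genes in 5 comparisons, with KO, A1331852 or deficient on top of the fold; filled points passed an adjusted p of 0.05. SNAI2 is at -1.45 and -2.93 in KO against WT with A1331852 and DMSO, and at 0.79 in A498 deficient against add-back.

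SNAI2 showed the largest log2 fold change between genotypes among the 7 genes tested in 786-O. With DMSO, SNAI2 was at 2.94, 2.53 and 2.56 CPM in KO cells, against 16.2, 19.5 and 28.3 CPM in WT cells. The groups did not overlap, and the 3 KO libraries were the lowest of all 16. The log2 fold change was -2.93 ± 0.27 (SE; edgeR, adjusted p = 3.27e-05), a fold of 0.131. Within batches the log2 difference of CPM plus 0.5 was -3.23 in batch 1 (replicate 3 alone) and -2.50 in batch 2. The added 0.5 makes these smaller in size at such low levels, and edgeR fits of batch 1 and batch 2 alone gave -3.45 and -2.65. The call of SNAI2 as lower held in each of 16 alternative analyses.

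With A1331852, SNAI2 was at 8.67, 8.15 and 7.03 CPM in KO cells, against 26.7, 25.2 and 13.3 CPM in WT cells. The groups again did not overlap, and the lowest WT value was that of replicate 3. The log2 fold change was -1.45 ± 0.25 (edgeR, adjusted p = 0.00146), a fold of 0.367, and the call held in each of 15 alternative analyses.

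SNAI2 rose with A1331852 in KO cells. The 3 treated KO libraries, at 7.03 to 8.67 CPM, lay above the 3 DMSO libraries at 2.53 to 2.94 CPM (log2 fold change 1.30 ± 0.34; edgeR, adjusted p = 0.0265). In WT cells the treated libraries, at 13.3 to 26.7 CPM, and the DMSO libraries, at 16.2 to 28.3 CPM, overlapped (-0.18 ± 0.29; edgeR, adjusted p = 0.846). The difference between the responses was 1.48 ± 0.36 and missed the threshold in edgeR (adjusted p = 0.117), whereas it passed in DESeq2 (adjusted p = 0.0104) and with a replicate block (1.51, adjusted p = 0.0325). It also passed without WT replicate 3 with A1331852 (1.23, adjusted p = 0.0224). The call in KO cells was lost in 7 of 15 alternatives, among them batch 1 alone (1.63, adjusted p = 0.157) and leaving out KO DMSO replicate 2 or KO A1331852 replicate 1 or 2 (1.23 to 1.31, adjusted p 0.0520 to 0.0644) or KO DMSO replicate 3 (0.84, adjusted p = 0.311).

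In A498 the sign was the opposite. SNAI2 was at 12.8 and 14.2 CPM in the libraries labelled deficient, against 7.95 and 7.46 CPM in those labelled add-back. The groups did not overlap, with a log2 fold change of 0.79 ± 0.17 (edgeR, adjusted p = 0.00372), and the call held in each of 10 alternatives.

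**Figure D3:**
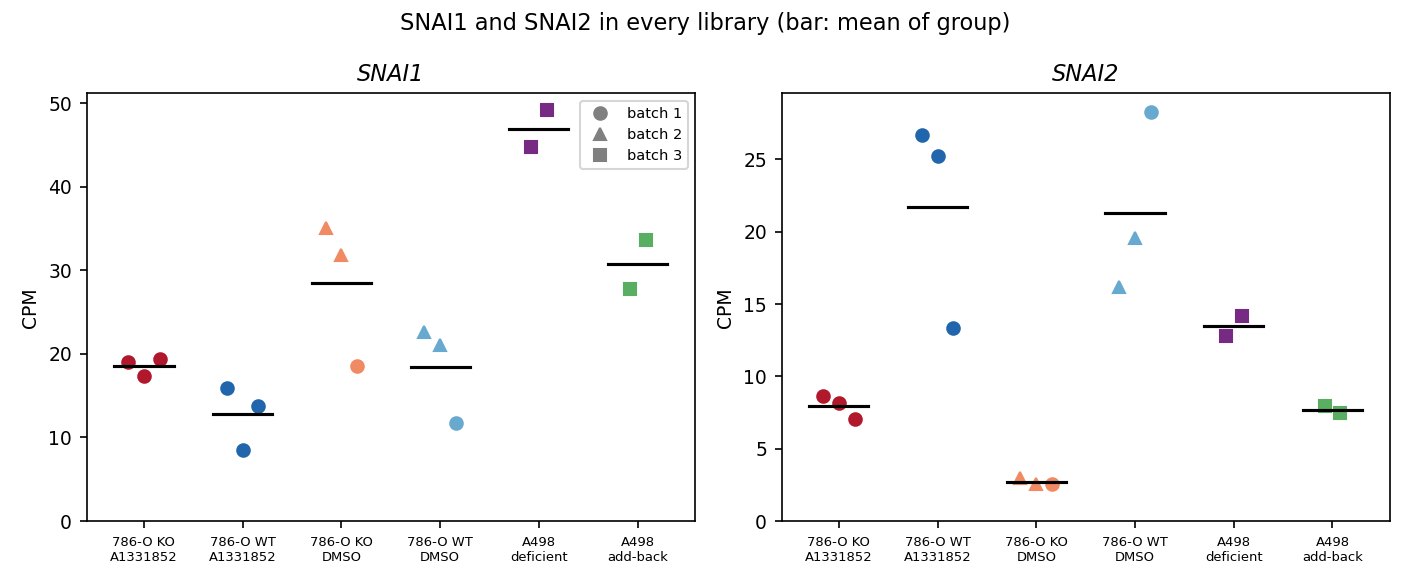
SNAI1 and SNAI2 in CPM in each of 16 libraries, by group; marker shapes give the batch and bars the group mean. The 3 KO DMSO libraries hold 2.53 to 2.94 CPM of SNAI2, below every other library, and SNAI1 is lower in batch 1 than in batch 2 within both DMSO groups.

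SNAI1 went the other way in 786-O. With DMSO, SNAI1 was at 35.0, 31.8 and 18.5 CPM in KO cells, against 22.6, 21.0 and 11.7 CPM in WT cells. The groups overlapped across batches, replicate 3 being the lowest of each genotype, but KO was above WT in both batches, by 0.64 on the log2 scale in batch 1 and 0.60 in batch 2. The log2 fold change was 0.64 ± 0.19 (edgeR, adjusted p = 0.0332). With A1331852, SNAI1 was at 19.0, 17.4 and 19.4 CPM in KO cells, against 15.9, 8.56 and 13.8 CPM in WT cells, without overlap (0.55 ± 0.19; edgeR, adjusted p = 0.0495). A1331852 against DMSO, with batch in the model, gave 0.010 ± 0.23 in KO cells (edgeR, adjusted p = 0.985) and 0.098 ± 0.24 in WT cells (edgeR, adjusted p = 0.907).

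The SNAI1 calls were near the threshold. With DMSO the call was lost with any single DMSO library left out (adjusted p 0.0819 to 0.130), without a batch term, in batch 1 alone and with DMSO replicates 1 and 2 summed to 1 library (adjusted p = 0.221). With A1331852 it held in 7 of 15 alternatives and was lost without any 1 of the KO libraries or WT replicate 2 (adjusted p 0.0772 to 0.128), the value without that WT library being 0.32.

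In A498, SNAI1 was at 44.8 and 49.1 CPM in the libraries labelled deficient, against 27.8 and 33.6 CPM in the add-back libraries. Both deficient values lay above every 786-O value, whereas the add-back values lay within the 786-O range, which reached 35.0 CPM in KO cells with DMSO. The deficient and add-back groups did not overlap (log2 fold change 0.59 ± 0.15; edgeR, adjusted p = 0.00735). The call was lost without add-back replicate 1 (0.47, adjusted p = 0.204).

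The SNAI1 and SNAI2 levels can be set against each other per length. The ratio of SNAI1 to SNAI2 in TPM was 4.23, 4.11 and 5.30 in KO and 1.15, 0.653 and 2.00 in WT cells with A1331852. With DMSO the ratio was 22.9, 24.1 and 13.9 in KO cells, against 2.69, 2.07 and 0.799 in WT cells. KO cells lay above WT cells in both, without overlap. In A498 the ratio was 6.72 and 6.68 in the deficient libraries, and in the add-back libraries it was just above, at 6.74, and 8.67.

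ZEB1 and ZEB2 did not pass the test between genotypes. With DMSO, ZEB1 was at 11.7, 10.0 and 15.4 CPM in KO cells, against 17.1, 15.5 and 20.2 CPM in WT cells. The groups were apart by a narrow margin, with a log2 fold change of -0.51 ± 0.28 (edgeR, adjusted p = 0.242), and with the replicate block ZEB1 was called lower (-0.51, adjusted p = 0.0469). With DMSO replicates 1 and 2 summed it was not (-0.49, adjusted p = 0.546). With A1331852, ZEB1 was at 31.4, 31.7 and 39.7 CPM in KO cells, against 26.2, 25.6 and 60.1 CPM in WT cells. Here the groups overlapped through WT replicate 3 alone: the log2 fold change was -0.12 ± 0.28 (edgeR, adjusted p = 0.782), and without that library it was 0.40 (adjusted p = 0.0503).

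ZEB1 rose with A1331852 in KO cells, where each treated library was above each DMSO library (log2 fold change 1.20 ± 0.35; edgeR, adjusted p = 0.0427). In WT cells the treated libraries were likewise each above the DMSO libraries, by 0.81 ± 0.35, which missed the threshold (edgeR, adjusted p = 0.368). The difference between the responses was 0.39 ± 0.39 (edgeR, adjusted p = 0.785), and without WT replicate 3 with A1331852 it was 0.92 (adjusted p = 0.0252). The call in KO cells was lost with any 1 of the 6 KO libraries left out (1.09 to 1.31, adjusted p 0.0712 to 0.213) and in batch 1 alone (1.15, adjusted p = 0.385).

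ZEB2 did not pass the test in any comparison. It was at 30.8, 41.1 and 62.2 CPM in KO and 38.9, 41.4 and 79.4 CPM in WT cells with A1331852. With DMSO it was at 25.3, 21.8 and 35.7 CPM in KO and 29.7, 29.1 and 42.1 CPM in WT cells. Replicate 3 held the highest ZEB2 value in each of these 4 groups. Log2 fold changes of ZEB2 ran from -0.29 to 0.34 over the 4 comparisons in 786-O (edgeR, adjusted p 0.538 to 0.761). In A498, neither factor was called: ZEB1 was at 16.2 and 24.9 CPM in the deficient and 19.7 and 19.3 CPM in the add-back libraries, and ZEB2 at 24.2 and 31.5 CPM in the deficient and 24.2 and 25.5 CPM in the add-back libraries (edgeR, log2 fold changes 0.051 ± 0.19 and 0.14 ± 0.16, adjusted p 0.865 and 0.532).

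**Figure D4:**
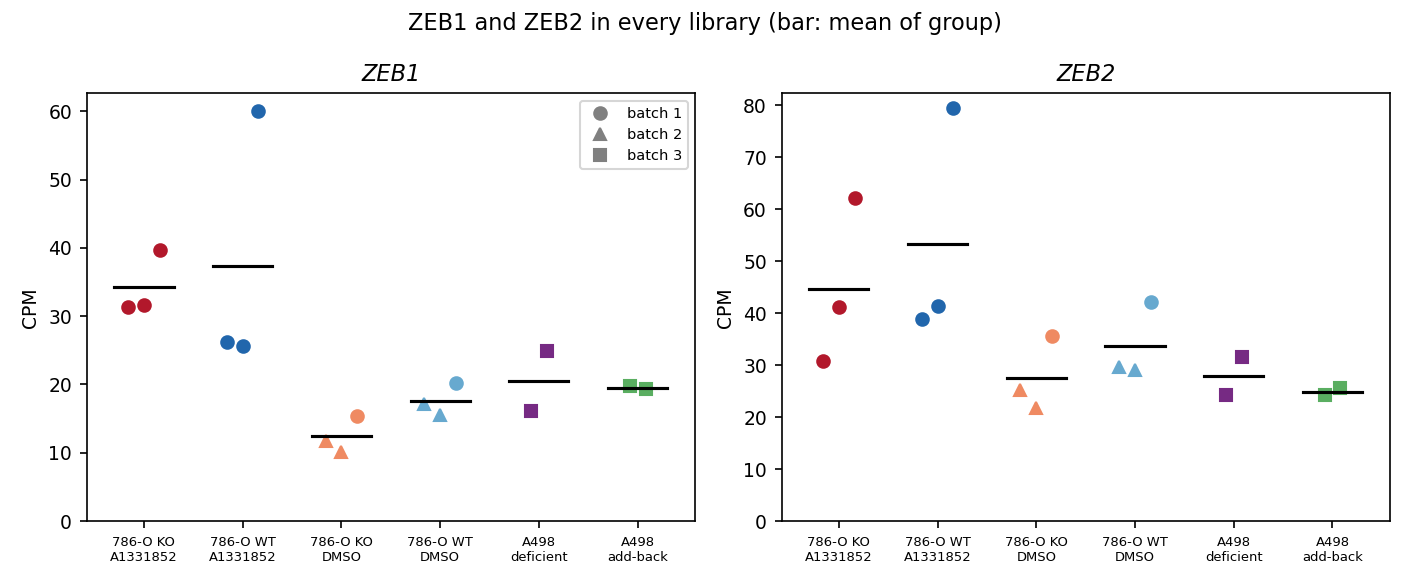
ZEB1 and ZEB2 in CPM in each of 16 libraries, by group, with the batch as marker shape and the group mean as a bar. ZEB1 lies at 31.4 to 39.7 CPM in treated KO cells and 10.0 to 15.4 CPM in KO cells with DMSO, and WT replicate 3 with A1331852 is the highest library for both genes, at 60.1 and 79.4 CPM.

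Promoters were read on both strands for the E-box core that SNAI and ZEB proteins bind, CAGGTG, or its reverse complement CACCTG, in the 250 bases before each transcript start in RefSeq (GRCh38.p14). Of 35116 such windows, 17.5% held at least 1 match. For ZEB1, 2 of 7 annotated starts held 3 matches in all, and ZEB2 (1 start), VIM (1), FN1 (1), TWIST2 (1) and CDH2 (2) held 0. No window of CDH1, SNAI1 or TWIST1 was in the set read, and SNAI2 is not reported here, so the count says nothing about these genes. A match describes letters and not binding. The window of the first ZEB1 start, chr10:31318167-31318416 on the plus strand, is shown because ZEB1 was called higher with A1331852 in KO cells and holds the motif, which is in capitals and begins 57 bases before the start.

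ZEB1: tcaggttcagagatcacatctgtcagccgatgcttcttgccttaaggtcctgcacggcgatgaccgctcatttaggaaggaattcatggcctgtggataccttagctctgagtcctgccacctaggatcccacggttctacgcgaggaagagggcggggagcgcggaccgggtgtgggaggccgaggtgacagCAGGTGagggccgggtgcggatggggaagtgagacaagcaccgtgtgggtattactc

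TWIST1 had 0 counts in all 16 libraries and TWIST2 had 1 count in KO DMSO replicate 3, 1 in KO A1331852 replicate 2 and 0 elsewhere. At 3 counts over a group, a count of 0 allows up to 0.0593 CPM in KO and 0.0539 CPM in WT cells with A1331852, 0.0342 CPM in KO and 0.0370 CPM in WT cells with DMSO, and 0.0915 and 0.0866 CPM in the deficient and add-back libraries. These floors cover counting error only. No difference in either gene was detectable at this depth.

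CDH1, the textbook target of these repressors, was nearly silent. In 786-O it had 1 count in all over the 3 KO libraries and 0 over the 3 WT libraries with A1331852, and 1 over KO and 2 over WT with DMSO. A difference in CDH1 was not detectable at this depth in 786-O. In A498, CDH1 had 5 and 6 counts (0.322 and 0.391 CPM) in the libraries labelled deficient, against 12 and 20 counts (0.662 and 1.07 CPM) in those labelled add-back. The groups did not overlap, but the log2 fold change of -1.29 ± 0.53 missed the threshold (edgeR, adjusted p = 0.0813). MIR200CHG, the host transcript of miR-200c, which targets ZEB1 and ZEB2, was at 0 in all but 2 libraries and at 0.0558 CPM at most; it is named after its values were seen.

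CDH2 did not pass the test in any comparison. With A1331852 it was at 288, 328 and 305.0 CPM in KO and 321, 280.1 and 231 CPM in WT cells, and with DMSO at 317, 304 and 306 CPM in KO and 368, 376 and 258 CPM in WT cells. In A498 it was at 261 and 287 CPM in the deficient and 267 and 248 CPM in the add-back libraries. The groups overlapped in each of 5 comparisons, and log2 fold changes ran from -0.083 to 0.15 (edgeR, adjusted p 0.469 to 0.899). In batch 2 alone CDH2 was called lower in KO cells (-0.22, adjusted p = 1.32e-04), whereas the log2 difference in batch 1 was 0.25.

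VIM fell in KO cells with DMSO, where it was at 5249, 5288 and 3305 CPM, against 6993, 7211 and 4365 CPM in WT cells. The groups overlapped across batches, but KO was below WT by 0.40 on the log2 scale in batch 1 and 0.43 in batch 2 (a log2 fold change of -0.41 ± 0.12; edgeR, adjusted p = 0.0283). The call was lost with any single DMSO library left out (adjusted p 0.0895 to 0.157), without a batch term, in batch 1 alone, with upper-quartile scaling (adjusted p = 0.0542) and with DMSO replicates 1 and 2 summed (adjusted p = 0.246). With A1331852, VIM was at 3873, 3413 and 3623 CPM in KO cells, against 4213, 4182 and 5020 CPM in WT cells. These groups were apart, with a log2 fold change of -0.30 ± 0.12 that missed the threshold in edgeR (adjusted p = 0.0766) and passed it in DESeq2 (adjusted p = 0.0289). VIM-AS1, the antisense transcript that shares 656 bases with VIM, was lower too in KO cells with DMSO, by 0.54 on the log2 scale (edgeR, adjusted p = 0.0318). It held 4571 counts over the 16 libraries, whereas VIM held at least 40590 in each library. Whether reads of either gene were counted to the other was not tested.

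FN1 fell in KO cells with A1331852, to 547, 839 and 1151 CPM, against 1403, 1456 and 1616 CPM in WT cells. The groups did not overlap, with a log2 fold change of -0.82 ± 0.21 (edgeR, adjusted p = 0.0117), a fold of 0.567. The call was lost without a batch term (adjusted p = 0.199) and in the batch 1 libraries alone (adjusted p = 0.0640), and the value was -0.58 without KO replicate 1 and -1.10 without KO replicate 3. With DMSO, FN1 was at 3821, 3666 and 1465 CPM in KO cells, against 5335, 5186 and 2006 CPM in WT cells, a difference of -0.47 ± 0.21 that missed the threshold (edgeR, adjusted p = 0.137) and was called with the replicate block (-0.47, adjusted p = 0.0367) but not with DMSO replicates 1 and 2 summed (-0.47, adjusted p = 0.428).

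FN1, VIM and SNAI1 differed between batches within each DMSO group. The libraries of batch 2 were above that of batch 1 by 1.35 on the log2 scale in KO and 1.39 in WT cells for FN1, by 0.67 and 0.70 for VIM and by 0.83 and 0.87 for SNAI1. All treated libraries belong to batch 1, so the batch 1 DMSO library is the closest control: FN1 was at 547 to 1151 CPM in treated KO cells against 1465 CPM, and at 1403 to 1616 CPM in treated WT cells against 2006 CPM. With batch in the model, A1331852 against DMSO gave -0.79 ± 0.25 for FN1 in KO cells (edgeR, adjusted p = 0.0538; DESeq2, adjusted p = 0.0270; without KO A1331852 replicate 3, -1.08 and edgeR adjusted p = 0.00631) and -0.44 ± 0.25 in WT cells (edgeR, adjusted p = 0.487). VIM did not pass the test with A1331852 in either genotype (0.14 ± 0.14 in KO and 0.023 ± 0.14 in WT cells; edgeR, adjusted p 0.568 and 0.967).

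**Figure D5:**
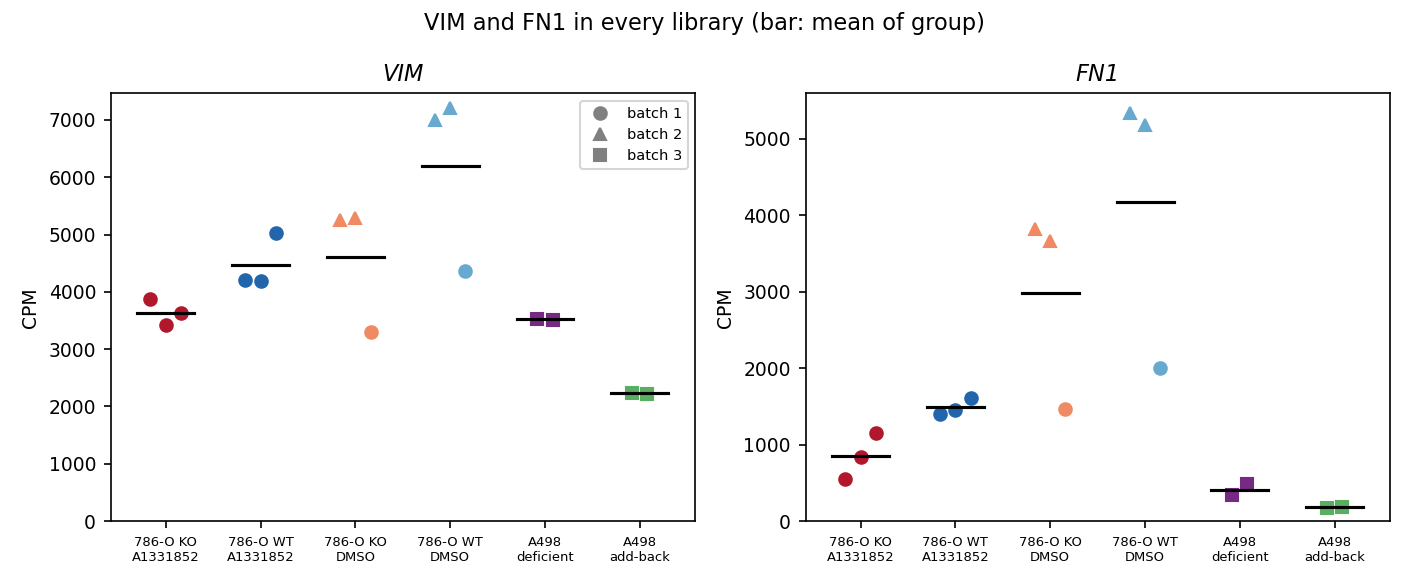
VIM and FN1 in CPM in each of 16 libraries, by group, with the batch as marker shape and the group mean as a bar. Within each DMSO group the batch 2 libraries are far above the batch 1 library (for FN1, 3821 and 3666 against 1465 CPM in KO cells), and in A498 both genes are higher in the libraries labelled deficient.

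In A498 both genes were higher in the libraries labelled deficient, opposite to their direction in the 786-O knockout. VIM was at 3528 and 3507 CPM in the deficient libraries, against 2240 and 2221 CPM in the add-back libraries (log2 fold change 0.64 ± 0.10; edgeR, adjusted p = 2.49e-04). FN1 was at 339 and 483 CPM in the deficient libraries, against 177 and 187 CPM in the add-back libraries (1.15 ± 0.15; edgeR, adjusted p = 6.01e-05). Neither gene's groups overlapped, and both calls held in each of 10 alternatives. VIM-AS1 was higher as well, by 0.83 (edgeR, adjusted p = 0.00402).

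Over the 16 libraries VIM and FN1 varied together, with a Pearson r of 0.921 of log2 CPM, and so did ZEB1 and ZEB2, with an r of 0.847. SNAI1 and SNAI2 had an r of -0.429. These are descriptions over 16 libraries of 2 lines, 6 groups and 3 batches, which the points share. The promoters of VIM (chr10:17227991-17228240, plus strand) and FN1 (chr2:215436069-215436318, minus strand) are shown because these genes had the highest correlation among the member pairs computed. Neither holds the E-box core. FN1 holds a cyclic AMP response element, TGACGTCA, which reads the same on both strands, begins 183 bases before the start and is in capitals; 1.65% of the 35116 windows held it.

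VIM: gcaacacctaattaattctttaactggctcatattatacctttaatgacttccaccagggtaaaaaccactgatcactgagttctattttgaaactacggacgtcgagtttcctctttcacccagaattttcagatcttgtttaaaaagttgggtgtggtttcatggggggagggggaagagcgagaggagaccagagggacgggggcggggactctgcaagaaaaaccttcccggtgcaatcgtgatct

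FN1: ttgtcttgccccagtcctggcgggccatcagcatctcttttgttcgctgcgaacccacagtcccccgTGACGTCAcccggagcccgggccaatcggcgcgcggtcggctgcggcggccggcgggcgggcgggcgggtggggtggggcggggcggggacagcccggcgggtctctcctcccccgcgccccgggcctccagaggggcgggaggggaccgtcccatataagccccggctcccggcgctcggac

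The difference between the lines was itself tested, as the log2 fold change of A498 (deficient against add-back) minus that of 786-O (KO against WT with DMSO). It passed for 3 of 8 tested genes, all in the positive direction, beside 13.2% of 17868 genes tested (7.10% higher, 6.12% lower). The difference was 3.74 ± 0.38 for SNAI2 (edgeR, adjusted p = 1.20e-05), 1.65 ± 0.32 for FN1 (edgeR, adjusted p = 0.00310) and 1.08 ± 0.17 for VIM (edgeR, adjusted p = 7.30e-04). For SNAI1, which was called higher in KO 786-O cells and in the A498 libraries labelled deficient, it was -0.017 ± 0.27 (edgeR, adjusted p = 0.999). The line, the batch and the way SETD2 was altered differ between these comparisons and cannot be told apart.

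Wider lists of EMT genes held calls in both directions. Of 34 tested mesenchymal genes (of 42 listed), KO cells with A1331852 had 5 higher and 14 lower than WT, and KO cells with DMSO had 2 higher and 9 lower, with median log2 fold changes of -0.23 and -0.24, against -0.01 and -0.02 over all genes. Of all genes tested, 13.2% were higher and 15.0% lower with A1331852, and 8.29% higher and 10.2% lower with DMSO. MMP2, a gelatinase, was at 0.1595, 0.0519 and 0.0664 CPM in KO against 7.36, 6.76 and 8.18 CPM in WT cells with A1331852 (log2 fold change -6.22 ± 0.41; edgeR, adjusted p = 2.31e-06), and at 0.0577, 0.0927 and 0 CPM in KO against 7.37, 7.26 and 11.8 CPM in WT cells with DMSO (-7.06 ± 0.40; edgeR, adjusted p = 1.00e-06). CDH11, a mesenchymal cadherin, was at 0.0866, 0.0309 and 0.148 CPM in KO against 0.870, 0.950 and 2.20 CPM in WT cells with DMSO (-3.82 ± 0.42; edgeR, adjusted p = 1.12e-04). LUM, the matrix proteoglycan lumican, fell by 2.70 on the log2 scale with A1331852 and by 1.87 with DMSO (edgeR, adjusted p 1.64e-05 and 1.70e-04). COL5A2, a fibrillar collagen chain, fell by 1.39 with DMSO (edgeR, adjusted p = 3.28e-04). With A1331852, TNC, the matrix glycoprotein tenascin C, and ITGA5, a subunit of the fibronectin receptor, rose in KO against WT cells by 2.07 and 1.37 (edgeR, adjusted p 5.35e-05 and 6.21e-05). Of 4 tested fibroblast markers, a list that shares LUM, 2 were lower in KO cells with A1331852 (LUM and PDGFRB) and 1 with DMSO (LUM), with 0 higher; COL1A1 was at 8.60, 9.70 and 6.16 CPM in KO and 8.80, 8.21 and 4.08 CPM in WT cells with DMSO. All 8 listed summed to 4.72 to 4.84 CPM in KO and 9.51 to 14.2 CPM in WT cells with A1331852, and to 9.76 to 12.2 CPM in KO and 13.9 to 15.3 CPM in WT cells with DMSO, with DCN at 0 in both KO groups and COL3A1 at 0 in both WT groups. Among leukocyte markers, CD14 was higher in KO cells (1.77 with A1331852 and 2.95 with DMSO on the log2 scale; edgeR, adjusted p 0.00262 and 3.40e-04), while PTPRC and CD3E were at 0 in both KO groups. The part of such cells in these results was not tested.

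Of 28 tested epithelial junction and surface genes, 7 were higher and 11 lower in KO against WT with A1331852, and 5 higher and 5 lower with DMSO, beside the shares of all genes just given. DSP, the desmosomal protein desmoplakin, was at 33.1, 31.3 and 25.1 CPM in KO cells with DMSO, against 2.21, 2.58 and 0.259 CPM in WT cells (log2 fold change 4.23 ± 0.45; edgeR, adjusted p = 9.12e-05). SPINT1, an inhibitor of membrane serine proteases, was at 0.173, 0.154 and 0.345 CPM in KO cells, against 3.23, 2.81 and 4.02 CPM in WT cells (-3.93 ± 0.39; edgeR, adjusted p = 5.26e-05). Among 12 genes of the E-cadherin complex and catenins, 5 were lower and 0 higher with A1331852, and 2 were lower and 0 higher with DMSO, NECTIN3, a nectin of adherens junctions, falling by 0.77 in both (edgeR, adjusted p 0.00147 and 0.00222).

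Of 13 tested other EMT transcription factors, 4 were higher and 2 lower in KO against WT with A1331852, and 1 higher and 1 lower with DMSO. SOX9 was the gene called higher in both, at 27.8, 26.9 and 24.5 CPM in KO and 8.31, 7.79 and 10.4 CPM in WT cells with A1331852, and at 13.7, 12.3 and 12.6 CPM in KO and 5.13, 5.85 and 2.07 CPM in WT cells with DMSO. Among 18 corepressors and stability factors of SNAI and ZEB proteins, 3 were lower with A1331852 and 2 with DMSO, with 0 higher, so the lower calls were near the 15.0% and 10.2% of all genes. KDM1A, a histone demethylase recruited by Snail, fell by 0.58 and 0.48, and CTBP2, a corepressor bound by ZEB proteins, by 0.28 and 0.40 (edgeR, adjusted p 0.00104 to 0.0466). Of 21 upstream signals, 5 were higher and 4 lower with A1331852, and 1 higher (FGFR1, a fibroblast growth factor receptor, 0.74) and 4 lower (among them WNT5B, a Wnt ligand, -4.06) with DMSO. WNT5B was low throughout, at 0.0866, 0.1545 and 0.0986 CPM in KO and 2.05, 2.32 and 1.49 CPM in WT cells with DMSO.

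With A1331852 in KO cells, 5 of the 13 other EMT transcription factors were called higher and 1 lower than with DMSO, where 6.46% of all genes were higher and 7.08% lower. HMGA2, an architectural chromatin protein, was at 59.2, 36.9 and 43.1 CPM with A1331852, against 9.53, 8.75 and 8.28 CPM with DMSO (log2 fold change 2.91 ± 0.46; edgeR, adjusted p = 0.00293). FOSL1, an AP-1 subunit, rose by 2.81 ± 0.51 and FOXC2, a forkhead factor, by 1.82 ± 0.29, while SOX4 fell by 1.58 ± 0.24 (edgeR, adjusted p 0.00227 to 0.00540). KLF4, a zinc finger factor listed with the repressors of EMT, was at 52.6, 65.0 and 74.6 CPM with A1331852, against 6.64, 7.29 and 4.29 CPM with DMSO (3.94 ± 0.41; edgeR, adjusted p = 4.78e-04), and ELF3, an epithelial ETS factor of the same list, fell by 2.86 ± 0.48 (edgeR, adjusted p = 0.00383). IL6, a cytokine among the upstream signals, rose by 2.44 ± 0.28 (edgeR, adjusted p = 6.59e-04).

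Among structural genes in treated KO cells, 6 mesenchymal genes rose and 8 fell, and 3 epithelial genes rose and 7 fell, of 34 and 28 tested. INHBA, a subunit of activin, rose by 2.65 ± 0.39, whereas SPARC, a matrix protein, fell by 1.06 ± 0.18 (edgeR, adjusted p 0.00205 and 0.00394). CDH16, the kidney-specific cadherin, was at 3.14, 4.20 and 5.44 CPM with A1331852, against 22.8, 26.0 and 33.3 CPM with DMSO (-3.33 ± 0.29; edgeR, adjusted p = 2.93e-04). The responses of CDH16, KLF4 and IL6 differed between KO and WT cells (interactions of -2.32 ± 0.33, 2.35 ± 0.42 and 1.77 ± 0.31; edgeR, adjusted p 0.0132, 0.0418 and 0.0364). In WT cells 0 genes of any of these lists were called by edgeR, beside 0.141% of all genes (23 genes, and 415 by DESeq2). With so few calls over all genes, this 0 does not show a lack of response. HMGA2, for example, was at 13.8, 16.4 and 34.4 CPM in WT cells with A1331852, against 11.8, 13.6 and 3.95 CPM with DMSO.

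In the A498 libraries labelled deficient, 11 mesenchymal genes were higher and 9 lower of 34 tested (median 0.22, against -0.01 over all genes), and 10 epithelial genes were higher and 6 lower of 32, where 15.1% of all genes were called in each direction. LOX, the collagen cross-linking lysyl oxidase, was at 19.9 and 24.9 CPM in the deficient libraries, against 0.441 and 0.373 CPM in the add-back libraries (log2 fold change 5.74 ± 0.27; edgeR, adjusted p = 6.05e-09). CDH11 was at 14.2 and 20.8 CPM in the deficient libraries, against 2.26 and 2.45 CPM in the add-back libraries (2.87 ± 0.23; edgeR, adjusted p = 6.64e-07). The 8 fibroblast markers summed to 50.5 to 66.9 CPM in the deficient and 44.6 to 48.7 CPM in the add-back libraries. Nearly all of this was COL1A1, at 49.5 to 66.0 and 42.5 to 47.1 CPM. Only 1 of the 8 in the deficient and 2 in the add-back libraries had a mean of at least 1 CPM, and COL1A2 was at 0 in all 4. Of 2 tested, PDGFRB was lower, and the part of such cells was not tested.

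Of the tight junction genes in A498, CGN (cingulin) was at 2.83 and 2.09 CPM in the deficient libraries, against 12.1 and 16.6 CPM in the add-back libraries (-2.56 ± 0.23; edgeR, adjusted p = 2.10e-06), and CLDN2 (claudin 2) was at 2.64 and 3.13 CPM in the deficient libraries, against 0.221 and 0.426 CPM in the add-back libraries (3.10 ± 0.42; edgeR, adjusted p = 8.91e-05). Of 15 tested other EMT transcription factors, 5 were higher and 1 lower in the libraries labelled deficient. FOXQ1, a forkhead factor, rose by 5.35 ± 0.46 and HMGA2 by 1.86 ± 0.19 (edgeR, adjusted p 1.26e-06 and 7.32e-06). FOXQ1 was near 0 in the add-back libraries, at 0.0552 and 0.1599 CPM, against 5.35 and 4.24 CPM in the deficient libraries. The size of its fold thus rests on values near 0. SNAI3, the lower gene, fell by 2.18 ± 0.55 (edgeR, adjusted p = 0.00829). It was low throughout, at 0.1288 and 0.4566 CPM in the deficient and 1.104 and 1.545 CPM in the add-back libraries. IL11, a cytokine of the interleukin 6 family, fell by 2.98 ± 0.27 (edgeR, adjusted p = 1.83e-06). Lists of upstream signals (3 higher, 4 lower of 21), corepressors (2 and 2 of 18) and the E-cadherin complex (1 and 4 of 12) were mixed, and 4 of 7 tested repressors of EMT were higher and 1 lower, KLF5, a zinc finger factor, rising by 1.74 ± 0.18 (edgeR, adjusted p = 5.41e-06).

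Genes whose log2 CPM most resembled that of each tested member over the 16 libraries, among 10552 protein-coding genes, were taken as a description only, since all share lines, batches and depth. SNAI1 was closest to BCL2L13, NEURL4 and HSPA1A, whose near-identical copy HSPA1B makes its count uncertain (Pearson r 0.940 to 0.930), and SNAI2 to SLC8A1, SEPTIN11 and TMEM123 (0.894 to 0.873). ZEB1 was closest to SUCO, CAPRIN2 and SEPTIN10 (0.967 to 0.947), and RASA2 and ZNF449 were among those closest to ZEB2 (0.941 and 0.939). CDH2 was closest to R3HDM1, DSEL and SNRNP40 (0.873 to 0.834). VIM was closest to INTS11, DPAGT1 and ZFPL1 (0.956 to 0.944), and FN1 to HDAC6, PITPNM1 and APEH (0.975 to 0.966).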

How the data were processed

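The deposited files hold counts: per the file headers, the authors counted fragments per gene with featureCounts 1.5.0-p3 in the reverse-stranded, paired-end setting, summing exons by gene name on GENCODE 41 (GRCh38). Per the submitters' processing notes, STAR aligned the reads, and MultiQC 1.7 and DESeq2 were also used; further settings are not given in the sources used here. The exon lengths in the deposited tables served, with the counts, for TPM, which was computed here. CPM used TMM factors over the 16 libraries. Log2 differences within a batch or between batches were taken on CPM plus 0.5.

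Tests were run in R 4.3.3 with edgeR 4.0.16 (TMM, low-count filter by group with a minimum count of 10, quasi-likelihood F test, Benjamini-Hochberg over all genes tested, call at an adjusted p under 0.05). One model with batch held all 12 libraries of 786-O, a second the 4 of A498, and another all 16 for the difference between lines. The standard error is the log2 fold change divided by the square root of F. The code was tested on simulated data. DESeq2 1.42.0, other scaling, other filters, batches apart, left-out libraries and a replicate block were alternatives, and DMSO replicates 1 and 2 were also summed, an alternative chosen after seeing the data. Whether replicates came from separate cultures is not given in the sources used here, so a p-value reflects only the spread between these libraries, which may be technical. Floors cover counting error only.

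Residuals of same-numbered KO and WT libraries correlated at 0.243, 0.228 and 0.465 with A1331852 and at 0.561, 0.496 and 0.724 with DMSO. Replicates 1 and 2 correlated across numbers as well, at 0.124 and 0.191 with A1331852. With DMSO, where they are of 1 batch, these values were 0.549 and 0.497. The numbers thus set replicate 3 apart, but with DMSO they did not tell replicates 1 and 2 apart. For KO against WT, the replicate block takes same-numbered libraries of a treatment as pairs. Numbers did not pair A1331852 with DMSO libraries (-0.049 to 0.059). The members and the gene lists were chosen with earlier results of these data known. Named genes are the 10 members, SETD2 and, from the genes called in each list, up to 4 with the smallest adjusted p per comparison, plus the 3 genes most like each tested member; some genes that this rule picks are not reported here.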

Additional observations from a re-analysis of the deposited data

Results flagged for a closer look

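The changes in A498 (libraries labelled deficient against add-back) and in 786-O (KO against WT with DMSO) differed by the test of the difference itself for 3 of the 8 tested genes. The difference, A498 minus 786-O, was 3.74 on the log2 scale for SNAI2, 1.65 for FN1 and 1.08 for VIM. Each held in 17 of 17 alternative analyses, with ranges of 3.47 to 3.89, 1.37 to 1.89 and 0.97 to 1.09. The SETD2 transcript did not follow the labels of the A498 groups, and line and batch move with this contrast. Their part in the result was not tested.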

How the results depend on the processing

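Of 15 calls on single members, 167 of 214 alternative values stayed called in the same direction, 47 lost the call and 0 turned round; of 36 results without a call, 23 of 574 alternative values passed the threshold and 42 turned round. The cause of these changes was not tested.

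In KO against WT with DMSO, 3001 genes and 3 members were called, against 4646 and 5 with the replicate block, 1490 and 1 with no batch term, 53 and 1 in batch 1 alone, 9276 and 7 in batch 2 alone, and 739 and 1 with DMSO replicates 1 and 2 summed; with no low-count filter 5 members were called, and leaving out 1 library gave 1614 to 1777 genes and 1 member. In KO against WT with A1331852, 4588 genes and 3 members became 2489 and 1 with no batch term and 2376 and 1 in batch 1 alone (3417 to 5455 genes and 2 to 3 members without 1 library). In WT cells, A1331852 against DMSO called 23 genes and 0 members, against 909 and 1 with no low-count filter, 415 genes in DESeq2, 2831 and 2 with the replicate block, 6 genes with no batch term, 0 in batch 1 alone (1351 genes at an unadjusted p under 0.05) and 0 with DMSO replicates summed (1406 at an unadjusted p under 0.05); the range without 1 library was 0 to 64 genes. In KO cells, 2201 genes and 2 members became 4311 genes with the replicate block, 85 and 0 in batch 1 alone and 656 and 0 with replicates summed, and 1 member was called at a mean of at least 50 counts; without 1 library the range was 781 to 2602 genes and 0 to 2 members. The interaction called 48 genes and 0 members, against 647 and 1 with no low-count filter, 371 and 1 in DESeq2, 294 and 1 with the replicate block, 7 genes with no batch term, and 0 in batch 1 alone and with replicates summed (280 and 753 at an unadjusted p under 0.05); without 1 library it called 0 to 5.0e+02 genes (rounded) and 0 to 2 members, most without WT replicate 3 with A1331852. In A498, 4657 genes became 2246 to 6272 without 1 library, the lowest without an add-back library (members 3 to 4). The difference between lines called 2362 genes, against 3692 with the replicate block, 1036 with replicates summed and 1151 to 1782 without 1 library.

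Numbers that do not pair A1331852 with DMSO libraries share only a number; as a replicate block they gave ZEB1 at 1.24 and ZEB2 at 0.83 in WT cells as calls, ZEB2 at 0.88 as a call in KO cells and SNAI2 at 0.84 in KO cells without one (edgeR, adjusted p 0.00538, 0.00872, 0.00327 and 0.0514). The replicate block called 4 members in A498, as without it.

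Log2 fold changes that turned round were those of uncalled genes. CDH2 in KO against WT with DMSO was 0.26 in batch 1 alone and 0.00032 with replicates summed. In A1331852 against DMSO, with no batch term, WT cells gave SNAI1 at -0.54, SNAI2 at 0.035 and VIM at -0.46, and KO cells gave SNAI1 at -0.62, CDH2 at -0.012 and VIM at -0.35; with upper-quartile factors VIM was -0.00041 in WT and SNAI1 -0.061 in KO cells; SNAI1 in KO cells was -0.019 at a mean of at least 50 counts and CDH2 in WT cells 0.11 in batch 1 alone. In the interaction ZEB2 was -0.013 with upper-quartile factors, -0.0026 at a mean of at least 50 counts and -0.020 in batch 1 alone, where CDH2 was -0.11. Without 1 library, KO against WT with A1331852 ran from -0.34 to 0.40 for ZEB1 and from -0.56 to 0.15 for ZEB2; A1331852 against DMSO in WT cells from -0.068 to 0.32 for SNAI1, -0.33 to 0.38 for SNAI2, -0.098 to 0.51 for ZEB2, -0.41 to 0.039 for CDH2 and -0.068 to 0.090 for VIM, and in KO cells from -0.016 to 0.067 for SNAI1; the interaction from -0.31 to 0.085 for SNAI1 and -0.30 to 0.44 for ZEB2; A498 from -0.29 to 0.33 for ZEB1 and -0.056 to 0.33 for ZEB2; and the difference between lines from -0.16 to 0.12 for SNAI1 and -0.98 to 0.71 for CDH1. Depth limits TWIST1, TWIST2 and, in 786-O, CDH1, at 0 or 1 count in a library.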
